A study of Mus musculus with 2 samples.

Results

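The lysyl oxidase family of the mouse has 5 genes, Lox, Loxl1, Loxl2, Loxl3 and Loxl4. They were selected by gene name from a table of 54713 genes and loci, and all 5 passed the minimum level for a measured gene, as did 13268 genes in all. The RNA came from SV40 MES13, an immortalised mouse kidney line that the labels call mesangial. In one subline a lentivirus delivered AI662270, a long noncoding RNA (genotype label: lncRNA AI662270 overexpression), and in the other a control lentivirus, titled Lv_NC, was used (genotype label: WT). Both were labelled untreated, went through puromycin selection at 0.5 mg/ml and maintenance at 0.25 mg/ml, and grew in medium with 10% serum. With a single library in each group there is no replicate check, each comparison describes 2 libraries, and the culture, the library and the delivered gene cannot be told apart. Whether each stable line was a clone or a pool is not given in the sources used here.

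Lysyl oxidases are secreted, copper-dependent amine oxidases. They convert lysine and hydroxylysine side chains of collagen and elastin into reactive aldehydes, which then condense into the covalent cross-links that make the extracellular matrix insoluble and stiff. In the kidney, cross-linking by these enzymes is studied because scarred glomeruli and interstitium accumulate stiff matrix. Lox and Loxl1 are made as proenzymes with a propeptide, whereas Loxl2, Loxl3 and Loxl4 carry scavenger receptor domains before the catalytic domain.

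The members share a catalytic domain at the end of the protein, and its coding bases show how alike the genes are and where reads of one member could be taken for another. The longest exact stretch shared by the coding sequences of any pair of members was 32 bases, in Lox and Loxl1, and the other 9 pairs shared at most 28. It lies in the part of the catalytic domain that holds the copper-binding histidines. A window of 60 coding bases around it was matched without gaps in the other members. From the start of the window 399 coding bases remained in both Lox and Loxl1, against 468 in Loxl2, 462 in Loxl3 and 459 in Loxl4. The window is shown for 4 members, 5′ to 3′ on the coding strand, from GENCODE M21 transcripts. Capitals mark the 33 positions at which all 5 members have the same base.
Loxl1: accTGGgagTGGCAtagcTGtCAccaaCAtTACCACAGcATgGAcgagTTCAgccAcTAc
Loxl2: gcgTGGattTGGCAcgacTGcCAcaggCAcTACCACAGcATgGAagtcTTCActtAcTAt
Loxl3: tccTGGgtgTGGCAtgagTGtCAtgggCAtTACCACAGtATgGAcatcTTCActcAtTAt
Loxl4: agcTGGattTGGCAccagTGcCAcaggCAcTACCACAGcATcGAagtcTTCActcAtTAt

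In build mm10 the Loxl1 window lies within chr9:58293696-58294384 on the minus strand and the Loxl2 window within chr14:69682313-69689061 on the plus strand. The Loxl3 window lies within chr6:83049992-83050149 on the plus strand and the Loxl4 window within chr19:42598783-42599902 on the minus strand. Each is split over 2 coding exons, so these intervals include an intron. Lox and Loxl1 had 56 identical bases of the 60 (93.3%), and Loxl2 and Loxl4 had 52 (86.7%), while Loxl1 and Loxl4 had 39 (65.0%). By this count Lox was closest to Loxl1, and Loxl2 and Loxl3 were closest to Loxl4.

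The delivered RNA was checked first. AI662270 drew 0 reads against 241, at least 78.4-fold higher if the control is set at a floor of 3 counts. Here and below, the first read count of a gene is that of the control library and the second that of the AI662270 library. The libraries held 15727023 and 15062482 counts. Of the mesangial markers 8 of 12 were measured, and Itga8, Thy1 and Ren1 were at 0 in both libraries. Of the measured ones 2 were higher, Acta2 (12 reads against 171) and Vim (3360 against 8872), and 3 were lower, Cald1 (14572 against 6785), Gata3 (76 against 25) and Serpine2 (28 against 10). The summed level of the mesangial markers was 1204 CPM (counts scaled to library size with TMM) against 1049 CPM. Most of this sum was Cald1, at 958 and 435 CPM, and Vim, at 221 and 569 CPM, which went opposite ways. Among the markers of other cells, the kidney epithelial cadherin Cdh16 had 4945 and 4409 counts and the proximal tubule receptor Lrp2 693 and 740. The summed levels in the control and AI662270 libraries were 153 and 84.1 CPM for podocyte markers, with Nphs1 at 0 and Podxl lower (1869 reads against 661). The sums were 0.592 and 1.41 CPM for endothelial, 63.0 and 56.5 CPM for proximal tubule, and 325 and 283 CPM for distal tubule and collecting duct markers. Nearly all of the distal tubule and collecting duct sum was Cdh16, and Umod and Aqp2 were at 0 in both libraries. The sums were 6.84 and 5.01 CPM for leukocyte and 4.47 and 8.09 CPM for fibroblast markers. The part of these markers in the results that follow was not tested.

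Of the 5 lysyl oxidase genes, 3 were higher in the AI662270 library, 0 were lower and 2 were not called. A gene was called where its log2 ratio, with a pseudocount of 0.5 CPM, reached 1 or -1 and the 95% exact counting interval of the ratio left out 1. The same rule called 5.59% of all measured genes higher and 5.72% lower. In the 9771 genes whose mean reached 10 CPM, where 4 of the members lie, it called 2.7% higher and 5.05% lower. The median log2 ratio of all measured genes was -0.02. Bracketed ranges hold counting error alone: reads had no molecular identifiers and there was no second culture. In bulk RNA, more cells that express a gene and more RNA per cell cannot be told apart.

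Lox encodes the founding member of the family, which cross-links fibrillar collagen and elastin. Its gene lies on chromosome 18, on the minus strand. Lox drew 199 reads in the control and 3771 in the AI662270 library. Per length, this was a level of 2.72 FPKM (2.36 to 3.13) in the control and 50.3 FPKM (48.7 to 51.9) in the AI662270 library, in FPKM computed from TMM-scaled counts and the gene length in the files. The Lox ratio was 18.5-fold (16.03 to 21.4), and only 3 measured genes had a higher log2 ratio, among them AI662270 itself. In the control library 25.96% of measured genes had a lower level per length than Lox, and in the AI662270 library 92.7% did. The authors' deposited table lists for Lox an adjusted p of 1.94e-15, from 1 library against 1 library.

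Loxl1 encodes the member known for maintaining elastic fibres. The gene spans chr9:58287738-58313186 in build mm10 on the minus strand. Loxl1 had 337 counts in the control and 1398 in the AI662270 library, or 6.72 FPKM (6.02 to 7.48) and 27.2 FPKM (25.8 to 28.7). It was 4.05-fold higher (3.59 to 4.57), with 98.9% of measured genes at a lower ratio. Loxl1 and Lox, the members most alike in the sequences above, were the pair with the highest ratios. The 32 bases they share exactly are a small part of either transcript, and the effect of reads placed between this pair was not tested. In the authors' deposited table Loxl1 has an adjusted p of 0.00028. That table calls Lox and Loxl1 higher and no other member, against 2.21% of 20667 genes called higher at an adjusted p under 0.05.

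Loxl2 encodes a member that acts on basement membrane collagen among other substrates. It spans chr14:69609068-69695834 on the plus strand. With 2535 counts in the control and 5549 in the AI662270 library it was 2.14-fold higher (2.04 to 2.24). This is close to the 2-fold limit of the rule. The Loxl2 levels were 30.8 FPKM (29.7 to 32.1) and 65.9 FPKM (64.2 to 67.6), the highest of the family in the AI662270 library. In the authors' deposited table its adjusted p is 0.129. Gm27177, an annotated antisense gene with 0 and 3 counts, shares 301 exon bases with Loxl2, and the strand setting of the counting is not given in the sources used here.

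Loxl3 encodes a member needed for cross-linking in cartilage and skeletal development. It spans chr6:83034173-83052562 on the plus strand. Loxl3 had 38 counts in the control and 65 in the AI662270 library, a ratio of 1.67 (1.10 to 2.56) that did not reach the size rule. Its level was the lowest of the family in both libraries, at 0.543 FPKM (0.384 to 0.745) and 0.906 FPKM (0.699 to 1.16). The value is uncertain because Htra2, which encodes a mitochondrial protease on the opposite strand, shares 535 exon bases with Loxl3 and had 558 and 418 counts.

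Loxl4 encodes a member with scavenger receptor domains, like Loxl2 and Loxl3. It spans chr19:42593982-42612813 on the minus strand and was the most abundant member in the control library. Loxl4 had 3106 counts in the control and 2163 in the AI662270 library, a log2 ratio of -0.56. The control level was 1.47 times the AI662270 level (1.39 to 1.56), so the interval lay on one side of 1 but the difference was below the size rule. Per length, the Loxl4 level was 48.5 FPKM (46.8 to 50.2) in the control and 33.0 FPKM (31.6 to 34.4) in the AI662270 library. It was the one member with more reads in the control.

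**Figure D1:**
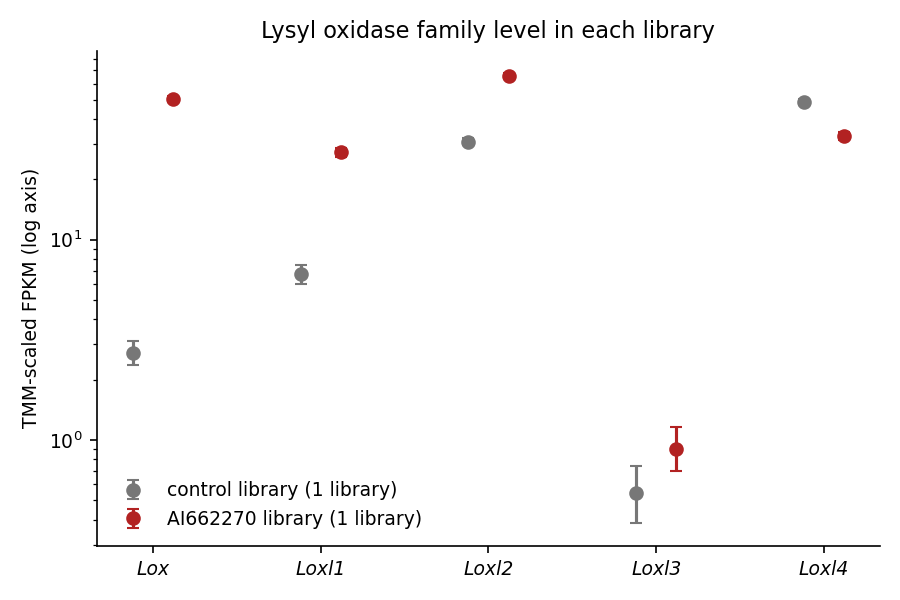
Level of each lysyl oxidase gene in TMM-scaled FPKM on a log axis, 1 point per library (grey, control; red, AI662270), with bars for the 95% exact Poisson interval, which covers counting error only. Lox has the widest gap, 2.72 against 50.3 FPKM, and Loxl4 is the one member whose control point is the higher.

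The order of the members by level differed between the libraries. In the control library it was Loxl4, Loxl2, Loxl1, Lox and Loxl3, and in the AI662270 library Loxl2, Lox, Loxl4, Loxl1 and Loxl3. Within each library the counting intervals of neighbours in this order did not overlap. The plot of levels shows this reordering: Loxl4 had 17.8 times the level of Lox in the control library and 0.655 times that level in the AI662270 library.

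**Figure D2:**
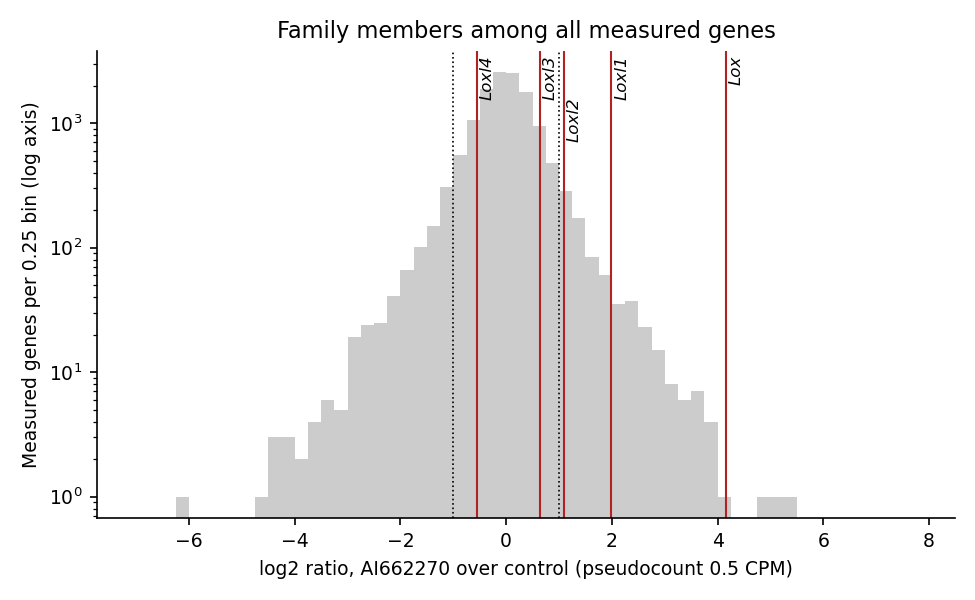
Histogram of the log2 ratio (AI662270 over control, pseudocount 0.5 CPM) of 13268 measured genes in bins of 0.25, with the gene count on a log axis; red lines mark the 5 members and dotted lines the limits of the size rule at -1 and 1. Lox lies in the far right tail at 4.16, Loxl1 at 1.99 and Loxl2 just past the limit at 1.09.

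The differences between members were compared as ratios of their folds, which do not depend on how the libraries are scaled. All 10 pairs were compared, and the exact 95% interval of the conditional odds ratio lay on one side of 1 in 9. The Lox fold was 4.57 times that of Loxl1 (3.78 to 5.53), 8.66 times that of Loxl2 (7.44 to 10.1) and 27.2 times that of Loxl4 (23.3 to 31.9). The Loxl1 fold was 1.90 times that of Loxl2 (1.67 to 2.16). Loxl2 and Loxl3 were the pair whose folds were not separated by counting error, with a ratio of 1.28 (0.832 to 1.94).

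Summed over the family, reads per kilobase were 1.98 times as high in the AI662270 library, with 89.3 FPKM in the control and 177 FPKM in the AI662270 library. The 5 genes had 6215 counts in the control and 12946 in the AI662270 library, a ratio of 2.03 (1.97 to 2.10). Without Lox the summed FPKM was 86.6 and 127, a ratio of 1.47. Most of the family total in the control library was Loxl4 and Loxl2, and in the AI662270 library Lox and Loxl1 made up a larger part of it.

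Of the family's reads per kilobase, Lox held 3.05% in the control and 28.4% in the AI662270 library. Loxl1 held 7.53% and 15.4%. The share of Loxl4 was 54.3% in the control and 18.6% in the AI662270 library, while that of Loxl2 was nearly level at 34.5% and 37.2%. Loxl3 stayed under 1% in both, at 0.608% and 0.511%. On raw counts the exact binomial intervals of the Lox share were 2.78% to 3.67% in the control and 28.3% to 29.9% in the AI662270 library.

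**Figure D3:**
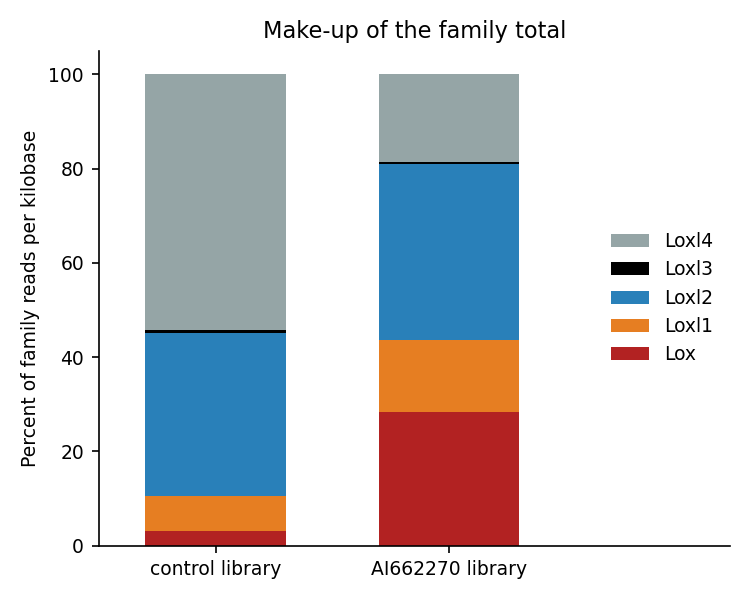
Stacked bars of each member's percent of the family's reads per kilobase, 1 bar for each library, adding up to 100 percent. The Lox segment is 3.05% in the control and 28.4% in the AI662270 library, and the Loxl4 segment 54.3% and 18.6%.

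The nearest measured gene on each side of each member, without Gm and Rik symbols, was examined with the same values. The gaps ran from 701 bases (Loxl3 to Dok1) to 646497 bases (Lox to Snx2), so some of these genes are distant. Of the 10 nearest measured genes, 0 were called higher and 1 was called lower. For Lox these were Srfbp1, with 392 reads against 225 (log2 ratio -0.81), and Snx2, with 1035 against 922 (-0.20). Loxl1 has Stoml1 on one side, at -0.35, and Insyn1 on the other, at 0.06. The gene called lower was Entpd4b beside Loxl2, with 163 and 10 counts, whose value is uncertain because the Entpd4 genes are near-identical copies. R3hcc1 on the other side of Loxl2 had a log2 ratio of 0.28. Dok1 and Aup1 beside Loxl3 had 0.04 and -0.22, and R3hcc1l and Pyroxd2 beside Loxl4 had 0.03 and 0.16.

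**Figure D4:**
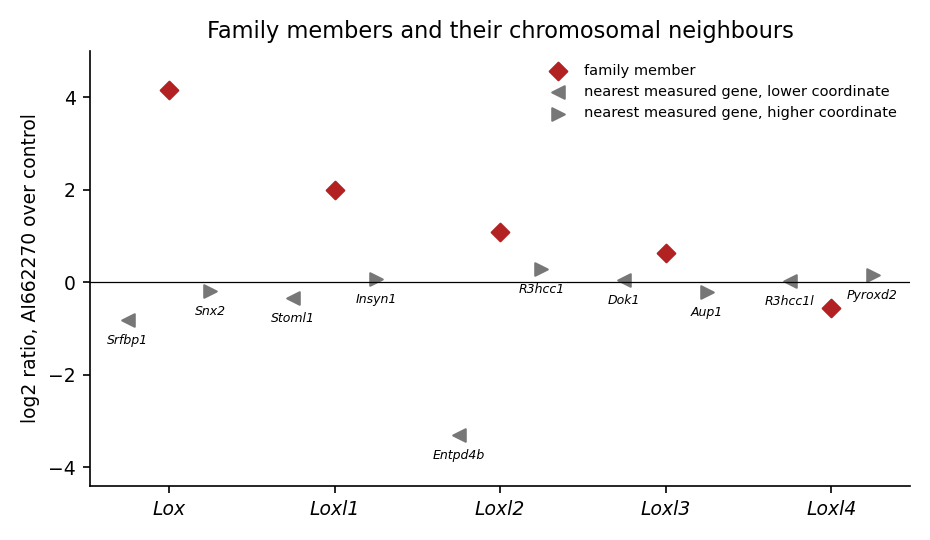
Log2 ratio (AI662270 over control) of each member (red diamonds) and of the nearest measured gene at lower and at higher coordinates (grey triangles), 1 value per gene from 1 library a group. Lox stands at 4.16 between Srfbp1 at -0.81 and Snx2 at -0.20, and Entpd4b is the one neighbour past the limit of -1.

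The genes that supply, prepare and receive the enzymes were described with lists of their pathway. Elastin (Eln) had 1 and 8 counts, Col3a1 and Col1a2 had 0 in both libraries, and Col1a1 had 67 and 124. These substrates of Lox were therefore low or listed at 0 counts in these cells. The fibrillar collagen Col5a1 was not: it drew 664 reads against 1251, a ratio of 1.84 (1.67 to 2.02) that was not called. Of 20 collagen genes 13 were measured, 4 were higher and 2 lower, and the median log2 ratio was 0.64. Col12a1, a collagen associated with fibrils, drew 33 reads against 528 and was 15.6-fold higher (10.98 to 22.9). The microfibrillar collagen VI genes Col6a1 and Col6a2 were 6.87-fold (5.75 to 8.27) and 7.62-fold (5.59 to 10.6) higher. Col4a3, a glomerular basement membrane chain, drew 80 reads against 7 and was 11.7-fold lower (5.43 to 30.1). On the authors' FPKM Col4a3 was 11.4-fold lower, but with 0.5 FPKM added to each level its log2 ratio was -0.90, short of the rule, and with a minimum mean of 5 CPM it was not measured, which left 1 collagen gene lower in either setting.

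Of 18 genes for elastin and elastic fibre assembly 9 were measured, 4 were higher and 0 lower, with a median log2 ratio of 0.39. Ltbp2, a latent TGF-beta binding protein of elastic fibres, drew 68 reads against 476 and was 6.83-fold higher (5.29 to 8.94). Emilin2 was 2.33-fold (1.64 to 3.34), Ltbp1 2.15-fold (1.78 to 2.62) and the fibrillin gene Fbn1 2.19-fold (1.63 to 2.98) higher. With a pseudocount of 2 CPM the calls of Emilin2, Ltbp1 and Fbn1 were lost, at log2 ratios of 0.85, 0.97 and 0.86. On the authors' FPKM their folds were 2.38, 2.21 and 2.25, and with 0.5 FPKM added, which is large beside control levels of 0.555, 0.955 and 0.348 FPKM, the log2 ratios were 0.79, 0.84 and 0.60 and the calls were lost too. In either setting 1 gene of this list was higher.

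Removal of the propeptide activates Lox, and matrix proteins hold the enzyme near its substrate. The list drawn up for these roles holds 12 genes, some of which, such as Pcolce and Pcolce2, act on procollagen propeptides instead. Of the 12 genes 6 were measured, 0 were higher and 1 lower, with a median log2 ratio of 0.01. Bmp1, which encodes the main propeptide protease, drew 1399 reads against 1515, a log2 ratio of 0.08, and Tll1 and Tll2, its relatives, were at 0 in both libraries. Fibronectin (Fn1), which binds Lox, drew 20327 reads against 19862, a log2 ratio of -0.07. The gene called lower was Thbs1, which encodes thrombospondin 1. It drew 4589 reads against 610 and was 7.71-fold lower (7.08 to 8.40).

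Hydroxylation of lysine and proline and folding come before cross-linking. In that list 17 of 18 genes were measured, 4 were higher and 0 lower, and the median log2 ratio was 0.75, with 14 members above 0. Plod2, the lysyl hydroxylase that acts on collagen telopeptides, drew 1367 reads against 4307 and was 3.07-fold higher (2.89 to 3.27). P4ha3, a prolyl hydroxylase subunit, had 1 and 45 counts, a ratio of 43.9 (7.49 to 1772), and fell out of the measured genes at a minimum mean of 5 CPM. P4hb, the partner subunit of prolyl hydroxylase, was 2.01-fold higher (1.95 to 2.07). Fkbp14 was 2.37-fold higher (1.80 to 3.15) but overlaps Plekha8, with 348 and 454 counts, and its call was lost with a pseudocount of 2 CPM, at 0.98.

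Lysyl oxidases take up copper in the secretory pathway. All 12 copper-handling genes were measured and had log2 ratios above 0, with a median of 0.63, 5 were higher and 0 lower. Atp7a, the pump that loads secreted copper enzymes, drew 405 reads against 542, a log2 ratio of 0.38. Its relative Atp7b drew 32 reads against 265 and was 8.08-fold higher (5.59 to 12.1). Mt1, a metal-binding metallothionein, was 3.80-fold higher (3.57 to 4.06). Cox17, a copper chaperone of mitochondria, was 2.28-fold higher (1.52 to 3.46) and the metalloreductase Steap3 2.27-fold (1.53 to 3.43). With a pseudocount of 2 CPM both calls were lost, at log2 ratios of 0.76 and 0.76, and 2 genes of the list were higher. With a minimum mean of 5 CPM Cox17 and Steap3 were not measured, and 3 were higher. On the authors' FPKM their folds were 2.33 and 2.32, and with 0.5 FPKM added, above control levels of 0.405 and 0.421 FPKM, the log2 ratios were 0.68 and 0.68, short of the rule.

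Other amine oxidases use a flavin or topaquinone cofactor in place of the one in lysyl oxidases. Of 10 such genes 6 were measured and 0 were called in either direction, with a median log2 ratio of -0.19. Smox, which encodes spermine oxidase, drew 2210 reads against 1419, a log2 ratio of -0.67. Kdm1a, a histone demethylase, had 1974 and 1881 counts and -0.10, and it overlaps Luzp1.

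Lox is a known target of the oxygen-sensing pathway. Of 20 genes of that pathway, all measured, 9 were higher and 0 lower. The median log2 ratio was 0.86, also with Stc1 set at its ratio to the floor of 3 counts. The list holds genes already known to be high in this library, so its direction is no independent evidence. Bnip3, a mitophagy receptor, drew 366 reads against 3049 and was 8.13-fold higher (7.29 to 9.08). Ak4, an adenylate kinase, drew 47 reads against 870 and was 18.1-fold higher (13.5 to 24.8). Stc1 drew 0 reads against 56 and was 18.2-fold higher against the floor of 3 counts, with an exact lower limit of 14.3. It was not measured with a minimum mean of 5 CPM. Ankrd37, at 7 reads against 173, was 24.1-fold higher (11.5 to 60.9) and overlaps Ufsp2, with 779 and 932 counts. Hif1a, an oxygen-regulated subunit, drew 2904 reads against 3054, a log2 ratio of 0.04. Epas1, another such subunit, drew 49 reads against 295 and was 5.87-fold higher (4.33 to 8.12). Vegfa and Slc2a1, common targets, had log2 ratios of -0.36 and 0.31.

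The TGF-beta pathway, a known inducer of matrix genes, had 16 of 17 genes measured, 3 higher and 2 lower, with a median log2 ratio of -0.02. The lower genes were Ctgf, with 7383 and 1381 counts, 5.48-fold lower (5.17 to 5.81), and Inhba, 3.99-fold lower (3.48 to 4.59). Smad6 and Tgfbr3, an inhibitory SMAD and a coreceptor, were 2.09-fold (1.76 to 2.50) and 2.05-fold (1.81 to 2.34) higher, and both calls were lost with a pseudocount of 2 CPM, at 0.96 and 0.98, where 0 genes of the list were higher. On the authors' FPKM with 0.5 FPKM added, Tgfbr3 had a log2 ratio of 0.98 and 1 gene of the list was higher; the Tgfbr3 fold without that addition was 2.10.

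**Figure D5:**
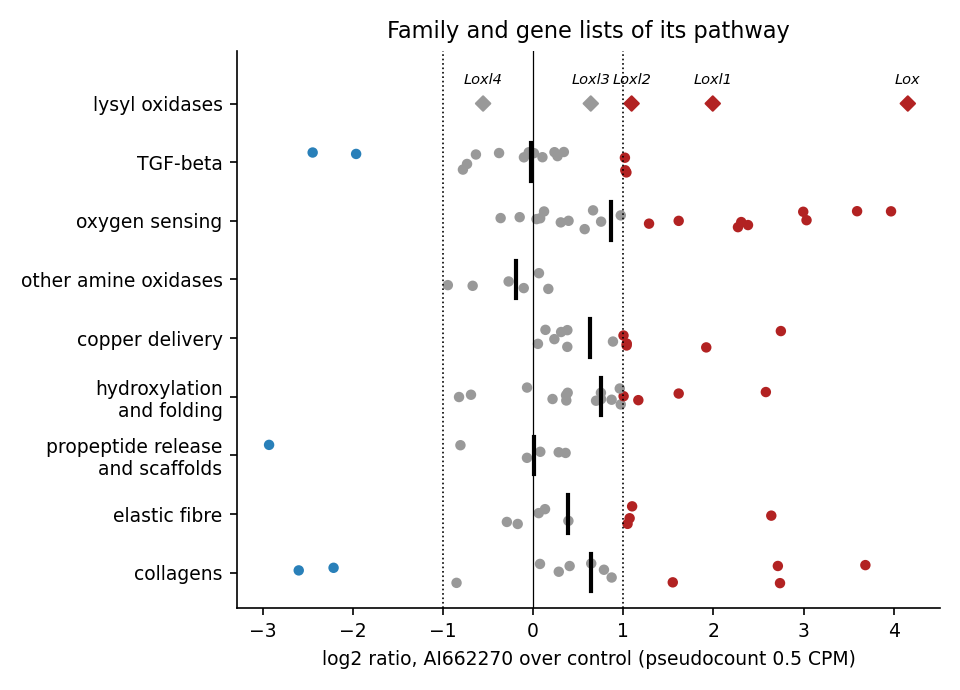
Log2 ratio (AI662270 over control, pseudocount 0.5 CPM) of every measured gene in 8 lists, 1 point per gene with random vertical spread, and of the 5 members as diamonds; red is called higher, blue called lower, grey not called, black bars are list medians and dotted lines the limits of the size rule. The medians of oxygen sensing (0.86), hydroxylation and folding (0.75), collagens (0.64) and copper delivery (0.63) lie right of 0, and that of other amine oxidases (-0.19) left of it.

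Genes most like each called member were ranked by distance over the 2 libraries in log2 of TMM-scaled FPKM plus 0.5. Closest to Lox was Gc, which encodes the vitamin D binding protein, with 62 and 1080 counts and a distance of 0.49, followed by Steap4 at 1.11 and Wisp2 at 1.21. Closest to Loxl1 were Nos2, the inducible nitric oxide synthase, at 0.22, then AC121151.1 at 0.30 and Uchl1 at 0.31. Closest to Loxl2 were the glycolytic genes Gpi1 at 0.12 and Pfkl at 0.18, then the actin regulator Arpc1a at 0.18. With 2 libraries this measure says only that a gene had similar levels in each.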

How the data were processed

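Per the submitters' processing notes the reads were handled with CASAVA 1.4 and TopHat2 on build mm10. No source used here gives the read counter, its annotation or its strand setting. The deposited count columns hold whole reads per gene, per the file headers. The deposited FPKM columns are counts per length over 1 divisor, 15391166, in both libraries. The deposited signal columns hold counts rescaled by the authors and were not used. The deposited log2 fold changes and p-values are the authors' own; only adjusted p-values were quoted. The labels name polyadenylated RNA and the design text rRNA removal, so the selection used is unsettled.

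Libraries were scaled with TMM (edgeR 4.0.16, R 4.3.3). Ratios, exact Clopper-Pearson and Poisson intervals (95%) and odds ratios were computed in Python 3.11.15 with scipy 1.17.1. Genes whose mean reached 1 CPM were measured. With 1 library a group no p-value was computed. Of rows sharing a symbol, the one with the most counts was used. On simulated counts for the AI662270 library against the control, the rule of size called 49 of 50 genes changed 3-fold, 48 of 50 changed 4-fold, 49 of 50 changed 8-fold, 1 of 50 changed 1.5-fold and 0 of 13052 unchanged genes (13264 genes in all). Spread between cultures could not be measured from 1 library a group, so these simulated calls give no false-call rate for real cultures.

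Members and lists were chosen with earlier results of these data known. Named genes are the members, AI662270, up to 4 called genes with the largest log2 ratios in each list (or the 2 with the most reads per kilobase), the nearest measured neighbours, and the 3 genes closest in level to each called member, without Gm and Rik symbols. Eln, Col1a1, Col1a2, Col3a1, Col5a1, Bmp1, Tll1, Tll2, Fn1, Atp7a, Atox1, Hif1a, Epas1, Vegfa and Slc2a1 were added after their values were seen. Alternatives were other scalings (total counts of rows with a gene symbol, DESeq2 1.42.0, upper quartile), pseudocounts, filters and size limits, and the FPKM columns (with 0.5 FPKM added before the log2 ratio). DESeq2 gave both libraries the divisor 15391166 of the FPKM columns, so those settings share the same scaling. GENCODE M21 gave sequences and exons. It holds the coordinates of the files for 4 members and differs by 2 bases at one end of Lox.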

Additional observations from a re-analysis of the deposited data

How the results depend on the processing

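No paired analysis was possible because each group holds 1 library and the labels give no replicate numbers. For the same reason no library could be left out. Wherever a member was measured, its direction held under the 10 planned settings. Only the other scalings and the FPKM columns could have changed a direction, because filters, size limits and pseudocounts cannot change the sign of a log2 ratio. Over the settings the log2 ratios were 4.01 to 4.25 for Lox, 1.92 to 2.09 for Loxl1 and 1.09 to 1.19 for Loxl2. They were 0.45 to 0.72 for Loxl3 and -0.56 to -0.46 for Loxl4. With a limit of 3-fold Loxl2, at 1.09, was no longer called, and with a limit of 1.5-fold Loxl3, at 0.64, was called higher. Loxl3 was not measured with a minimum mean of 5 CPM.

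The number of all genes called higher was 742 as reported, 400 with a pseudocount of 2 CPM, 391 with a minimum mean of 5 CPM and 486 on the authors' FPKM with 0.5 FPKM added. It was 1705 at 1.5-fold and 247 at 3-fold, where 1893 and 262 genes were lower. With a minimum mean of 10 CPM, chosen after the data were seen, 264 were higher and 493 lower. Over the 8 lists together 28 genes were higher and 5 lower. The higher count was 17 with a pseudocount of 2 CPM and 15 at 3-fold, and the lower count was 14 at 1.5-fold. Without division by length the shares of Loxl1, Loxl2 and Loxl4 in family reads were 5.42%, 40.8% and 49.98% in the control and 10.8%, 42.9% and 16.7% in the AI662270 library. Depth limits Loxl3 most, with 38 and 65 counts.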
